A study of Mus musculus with 8 samples.

Results

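Organic anions, organic cations, drugs and their conjugates cross the kidney tubule through a small number of transporter families. The members described here are the genes of the SLC22 family (named Slc22a), the SLCO family (organic anion transporting polypeptides), the SLC47 family (multidrug and toxin extrusion, MATE) and the ABCC family (multidrug resistance proteins, MRP), together with Abcb1a and Abcb1b (P-glycoprotein) and Abcg2 (breast cancer resistance protein). They were taken by gene name, with pseudogenes dropped, and made up 55 of the 35275 genes in the deposited table. By family, and not by the direction known for each gene, 40 were counted as uptake carriers (SLC22 and SLCO) and 13 as efflux pumps and exchangers. The remaining 2, Abcc8 and Abcc9, are regulatory subunits of ATP-sensitive potassium channels and were put on neither side.

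The study compared whole left kidneys of Ctrp1-/- mice (called KO here, n = 4) with those of wild-type littermates (WT, n = 4), each library from a different mouse. All 8 were males, fed a high-fat diet with 60% of its energy from fat from 6 weeks of age and sampled at 40 weeks. The KO allele lacks 679 bp of C1qtnf1, which encodes the circulating protein CTRP1. The deletion takes the coding part of exon 4 and 162 bp of the 3′ untranslated region, was made in 129S5 cells, is carried in every cell of the animal, and had gone through over 6 generations of backcrossing to C57BL/6J. Both groups came from crosses of heterozygous parents. Since both groups ate the high-fat diet, a comparison with another diet was not part of the design.

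Secretion of a drug or a waste anion in the proximal tubule takes 2 steps. On the blood side, OAT1 and OAT3 (Slc22a6, Slc22a8) exchange organic anions for α-ketoglutarate and OCT2 (Slc22a2) takes up organic cations. On the urine side, pumps of the ABC family use ATP to export anions and conjugates, and MATE1 (Slc47a1) exchanges cations for protons. Other members of the same families work in the opposite sense and bring urate, nicotinate or carnitine back from the filtrate.

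The libraries held 17884140 to 20344859 reads. Levels are FPKM (fragments scaled for gene length and library depth) divided by a scaling factor for each library and are called scaled FPKM. Differences between the groups are on the log2(scaled FPKM + 1) scale, KO minus WT, with their standard error (SE), and were tested with limma over the 12118 genes whose FPKM averaged 1 or more. C1qtnf1 checked the labels: it lay at 5.1, 5.22, 5.6 and 5.57 scaled FPKM in WT mice and at 0.867, 0.349, 0.597 and 0.623 in KO mice (log2 difference -1.99 ± 0.11 SE, limma adjusted p = 2.3e-05). The library of KO replicate 2 stood apart, with a mean correlation of 0.969 with the other libraries against 0.982 to 0.986 for those 7. It was the lowest of the 8 mice for 33.1% of the tested genes and the highest for 33.4%, so results are also given without it. In all, 5 genes (0.0413% of those tested) passed the threshold of an adjusted p of 0.05, and 20 (0.165%) did so without that mouse.

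None of the 35 tested members passed that threshold, with all 8 mice or without KO replicate 2, and the smallest adjusted p of a member was 0.25 (limma, Slc22a7). At an unadjusted p under 0.05 there were 6 of 35 members, 2 of them higher in KO mice (Slc22a7 and Slco4a1) and 4 lower (Abcc2, Abcb1a, Abcb1b and Abcc9). Among all tested genes, 3.75% were higher and 2.33% lower at that p. In 7 members the 4 KO values did not overlap the 4 WT values. Slc22a7, Slc22a12 and Slc22a6 were among the 4 that lay higher in KO mice, and Abcc2, Abcb1b and Abcc9 lay lower. Over all tested genes the groups did not overlap for 5.11%, made up of 2.46% higher and 2.65% lower. All 4 higher members were uptake carriers, and of the 3 lower ones Abcc2 and Abcb1b were efflux pumps. Without KO replicate 2, 7 members had an unadjusted p under 0.05 against 11.6% of all genes, and 8 did not overlap against 11.4%.

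**Figure D1:**
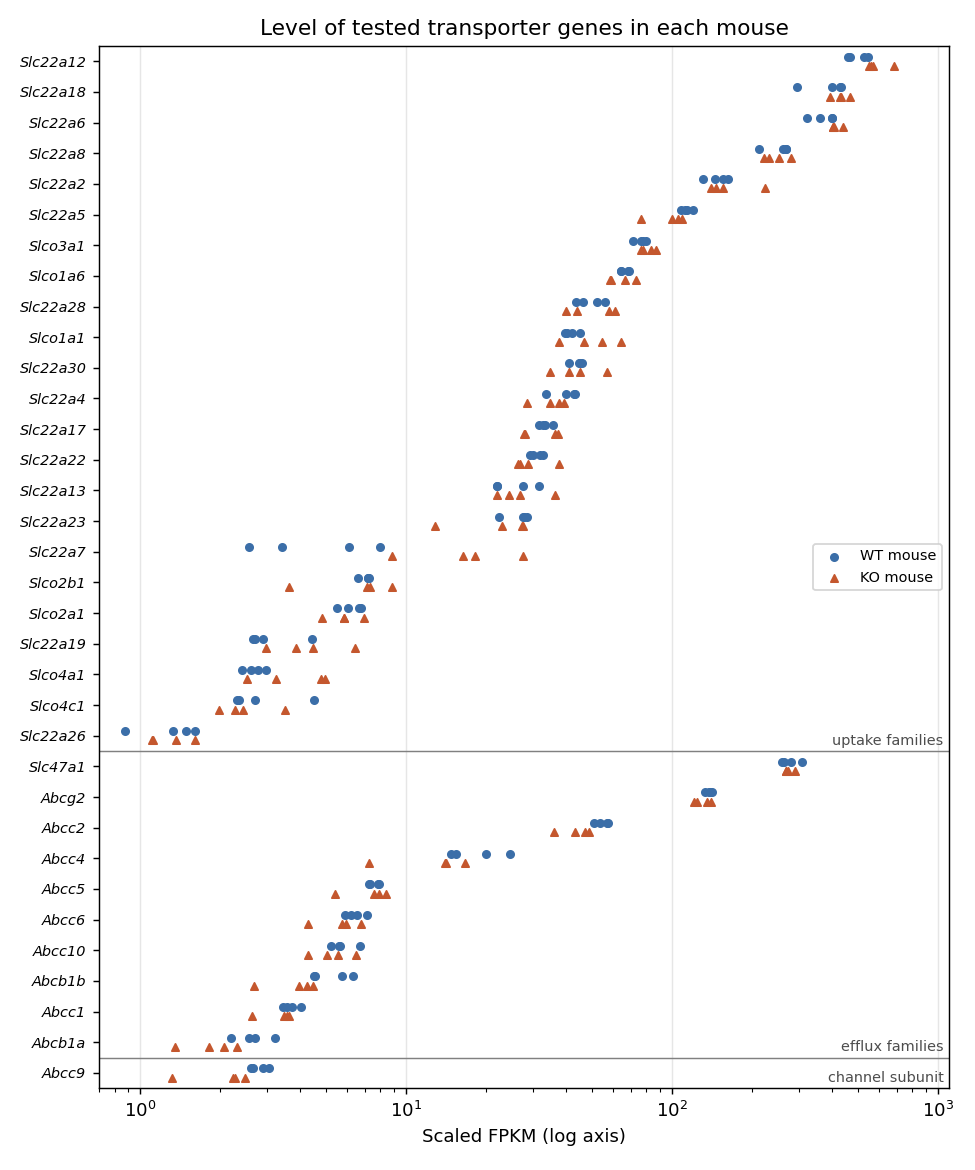
Level of the tested members (rows) in each mouse, in scaled FPKM on a log axis, with a blue circle for each WT mouse and an orange triangle for each KO mouse, and members ordered by mean level within the uptake families, the efflux families and the channel subunit. Slc22a7 is the member in which the triangles lie furthest to the right of the circles, and for most other members the groups overlap or nearly meet.

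These are kidney libraries in which the families were abundant. Mean FPKM was at least 100 in 9 members, from 10 to 100 in 13 and from 1 to 10 in a further 13, while the median tested gene lay at 8.76. The remaining 20 members were not tested because their mean was under 1, and 5 of those were at 0 in every library. In WT mice the highest carrier was Slc22a12 with 500 ± 44.0 scaled FPKM (SD, n = 4), followed by Slc22a18 with 388 ± 63.6 and Slc22a6 with 370 ± 37.0. The last 2 did not differ beyond their spread. Slc47a1 (277 ± 21.2) and Slc22a8 (253 ± 26.6) came below them, again within each other's spread. Slc22a2 (149 ± 13.8) and Abcg2 (138 ± 3.32) followed at similar levels, then Slc22a5 (113 ± 5.31). These values are per gene length, so levels of different genes can be set beside each other only roughly. Shared sequence, given below, and the unknown annotation behind the lengths both limit this.

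Among the organic anion carriers of the SLC22 family, 8 of 11 were tested. Slc22a7 (OAT2, ENSMUSG00000067144, chromosome 17 from 46432183 to 46438457 in mm10) had the largest difference of any member. This carrier takes up small organic anions and nucleotide-related compounds. It lay at 2.56, 6.11, 7.96 and 3.42 scaled FPKM in WT mice and at 18.2, 16.4, 27.6 and 8.81 in KO mice. Every KO mouse was above every WT mouse, the lowest KO value being close to the highest WT value. The means were 5.01 ± 2.48 and 17.8 ± 7.70 (SD, n = 4 each), 3.54-fold apart, and the log2 difference was 1.64 ± 0.35 SE with an unadjusted p of 0.00081 (limma adjusted p = 0.25). The values rest on 780 reads in WT and 2611 in KO mice, and none of the gene's 50-base stretches occurs in another gene. Without KO replicate 2 the difference was again 1.64, with an SE of 0.48 (adjusted p = 0.32).

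Slc22a6, the main basolateral carrier of p-aminohippurate and many anionic drugs, lay at 322, 400, 399 and 360 scaled FPKM in WT mice and at 404, 438, 406 and 403 in KO mice. The groups did not overlap, but WT replicates 2 and 3 came within a few units of the lowest KO mice. The difference of 0.16 ± 0.10 SE had an adjusted p of 0.86 (limma). Slc22a8 (OAT3), the neighbouring gene with a similar task, lay at 213 to 269 in WT and 221 to 280 in KO mice, which overlapped (-0.04 ± 0.11 SE). Neither passed the threshold, and the difference between the 2 genes was not tested.

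The other organic anion carriers of the family sit beside Slc22a6 and Slc22a8 on chromosome 19, apart from Slc22a22 on chromosome 15. Slc22a28 lay at 43.4 to 56.1 scaled FPKM in WT and 39.9 to 61.0 in KO mice, Slc22a30 at 40.9 to 45.7 and 34.8 to 56.9, and Slc22a22 (a prostaglandin-specific carrier) at 29.2 to 32.6 and 26.3 to 37.5. Their log2 differences were 0.02, -0.01 and -0.06. All 3 were highest in KO replicate 2, and without that mouse the 3 remaining KO values of Slc22a22 were all below the WT values (-0.17 ± 0.07 SE, limma adjusted p = 0.34). Slc22a19 lay at 2.65, 2.90, 4.41 and 2.71 in WT and at 3.85, 6.42, 4.48 and 2.96 in KO mice, overlapping groups with a difference of 0.36 ± 0.19 SE (0.20 without KO replicate 2). Slc22a26, at 0.875 to 1.61 and 1.11 to 1.61, was the lowest member tested. Reads cannot be assigned with certainty between Slc22a28 and Slc22a30: 53.3% of the 50-base stretches of Slc22a28 also occur in Slc22a30.

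Urate and nicotinate are recovered from the filtrate by Slc22a12 (URAT1) and Slc22a13 (OAT10) in the brush border. Slc22a12 (ENSMUSG00000061742, chromosome 19 from 6535845 to 6543032) lay at 458, 547, 528 and 467 scaled FPKM in WT mice and at 549, 681, 562 and 568 in KO mice. Every KO value exceeded every WT value, though the highest WT and the lowest KO mouse were only at 547 and 549, and KO replicate 2 was far above the other KO mice. The log2 difference was 0.24 ± 0.11 SE (unadjusted p = 0.057, limma adjusted p = 0.82) and 0.17 ± 0.08 SE without that mouse. Exons of Nrxn2 on the opposite strand cover 30.1% of the exon bases of Slc22a12, and the sources used here do not give whether strand was counted, so reads of the 2 genes cannot be told apart there. Slc22a13 lay at 21.9 to 31.5 in WT and 21.9 to 36.4 in KO mice. Its difference of 0.08 ± 0.17 SE turned to -0.07 without KO replicate 2, and 36% of its 50-base stretches occur in the pseudogene Slc22a13b-ps.

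Among the organic cation carriers, Slc22a2 (OCT2), the carrier of metformin and creatinine on the blood side, lay at 131, 156, 163 and 145 in WT and at 155, 224, 140 and 146 in KO mice. The difference of 0.14 ± 0.15 SE rested on KO replicate 2, and was -0.02 without it. Slc22a3 (OCT3), a neighbour of Slc22a2 on chromosome 17, was below the tested range at 0.676 ± 0.199 in WT and 0.395 ± 0.0798 in KO mice (189 and 103 reads).

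Of the 5 carnitine and zwitterion carriers, Slc22a4 and Slc22a5 were tested, and neither passed the threshold. Slc22a5 (OCTN2), which recovers carnitine from the filtrate with sodium, lay at 108, 120, 114 and 112 scaled FPKM in WT mice and at 99.9, 76.7, 109 and 105 in KO mice. All KO mice but replicate 3 were below the lowest WT mouse, and KO replicate 2 was the lowest by far. The difference was -0.23 ± 0.12 SE (unadjusted p = 0.082, limma adjusted p = 0.84), and -0.12 without KO replicate 2. Slc22a4 (OCTN1), which carries the zwitterion ergothioneine, lay at 33.7 to 43.3 in WT and 28.6 to 39.1 in KO mice (-0.19 ± 0.12 SE, and -0.10 without KO replicate 2). The nearby Slc22a21 stayed under the filter, at 0.974 ± 0.107 in WT and 0.803 ± 0.192 in KO mice, and shares 21.7% of its 50-base stretches with Slc22a5.

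The other tested SLC22 genes were mixed. Slc22a18 lay at 296, 427, 432 and 398 scaled FPKM in WT and at 393, 467, 427 and 431 in KO mice, overlapping groups in which WT replicate 1 was the lowest (0.16 ± 0.13 SE, and 0.03 without it). Slc22a17, a receptor for lipocalin-2, lay at 31.6 to 35.8 in WT and 27.7 to 37.2 in KO mice (-0.05 ± 0.11 SE). Slc22a23, whose cargo is not known, lay at 27.7, 28.4, 27.6 and 22.4 in WT and at 27.3, 12.8, 27.5 and 22.9 in KO mice. Apart from KO replicate 2 the KO values matched the WT values, and the difference of -0.27 ± 0.21 SE was -0.03 without that mouse.

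Of the 15 SLCO genes 7 were tested, with 3 differences above 0 and 4 below and a median of -0.06 (0.10 without KO replicate 2). Slco1a1, an androgen-dependent carrier of steroid conjugates in the brush border, lay at 39.5, 42.0, 44.9 and 40.2 scaled FPKM in WT mice and at 54.6, 64.1, 37.5 and 46.8 in KO mice. KO mice reached both the lowest and the highest value, and the difference of 0.25 ± 0.14 SE (limma adjusted p = 0.86) was 0.13 without KO replicate 2. A list of androgen-responsive kidney genes, chosen with earlier results of these data known, had 6 of 7 tested genes above 0. Odc1 lay at 279 ± 12.3 in WT and 356 ± 49.2 in KO mice. The list had a median of 0.31, which was 0.05 without KO replicate 2. Its part in the values of Slco1a1 was not tested.

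Slco4a1, a carrier of thyroid hormone and prostaglandins, lay at 2.78, 2.97, 2.60 and 2.42 scaled FPKM in WT mice and at 4.78, 3.24, 2.51 and 4.94 in KO mice. KO replicates 1 and 4 were well above the WT mice, whereas replicate 3 lay among them. The difference was 0.37 ± 0.16 SE (unadjusted p = 0.049, limma adjusted p = 0.82). Slco3a1 lay at 71.5 to 80.1 in WT and 76.2 to 87.1 in KO mice (0.08 ± 0.08 SE), and Slco1a6 at 64.4 to 69.0 and 58.5 to 73.2 (-0.06 ± 0.09 SE). Slco2a1, the prostaglandin transporter, lay at 5.48 to 6.76 and 4.82 to 6.95 (-0.08 ± 0.11 SE). Slco2b1 lay at 7.23, 7.16, 6.59 and 7.17 in WT and at 7.15, 3.61, 8.85 and 7.32 in KO mice, where KO replicate 2 alone set the negative sign (-0.11 ± 0.20 SE, and 0.12 without it). Slco4c1, a basolateral carrier of digoxin and thyroid hormone, lay at 4.52, 2.36, 2.71 and 2.31 in WT and at 1.97 to 3.5 in KO mice, so that WT replicate 1 set the sign there (-0.15 ± 0.18 SE, and 0.01 without it).

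On the efflux side, all 10 tested members had a log2 difference below 0, with a median of -0.14 and values from -0.51 to -0.01. Over all tested genes 51.2% were below 0 and the median was -0.0045. Without KO replicate 2 the count was 9 of 10 and the median -0.09, against 53.3% of all genes below 0. Of the 24 uptake members 12 were above 0 and 12 below, with a median of 0.01. Nothing here tests the members as a set, and the difference between the sides was not tested. KO replicate 2 was the lowest of the 8 mice for 7 of the 10 efflux members. It was the highest for 13 of the 24 uptake members and the lowest for 5, while WT replicate 1 was the lowest for 10 uptake members. Tested efflux members had 3383 (Slc47a1) to 15092 (Abcc1) exon bases, and tested uptake members 1699 (Slc22a18) to 13545 (Slco2a1). KO replicate 2 was lowest for the uptake genes Slc22a23 (6386 exon bases) and Slco2b1 (5958), but not for Slco3a1 (8474). Whether gene length bears on these values was not tested. Each mouse was measured from the WT mean, which by itself centres the WT mice near 0. The median over the efflux members was -0.09, -0.40, -0.13 and -0.13 in the 4 KO mice and between -0.04 and 0.04 in the 4 WT mice. Over the uptake members it was 0.03, 0.21, 0.03 and -0.04 in the KO mice and between -0.10 and 0.09 in the WT mice.

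**Figure D2:**
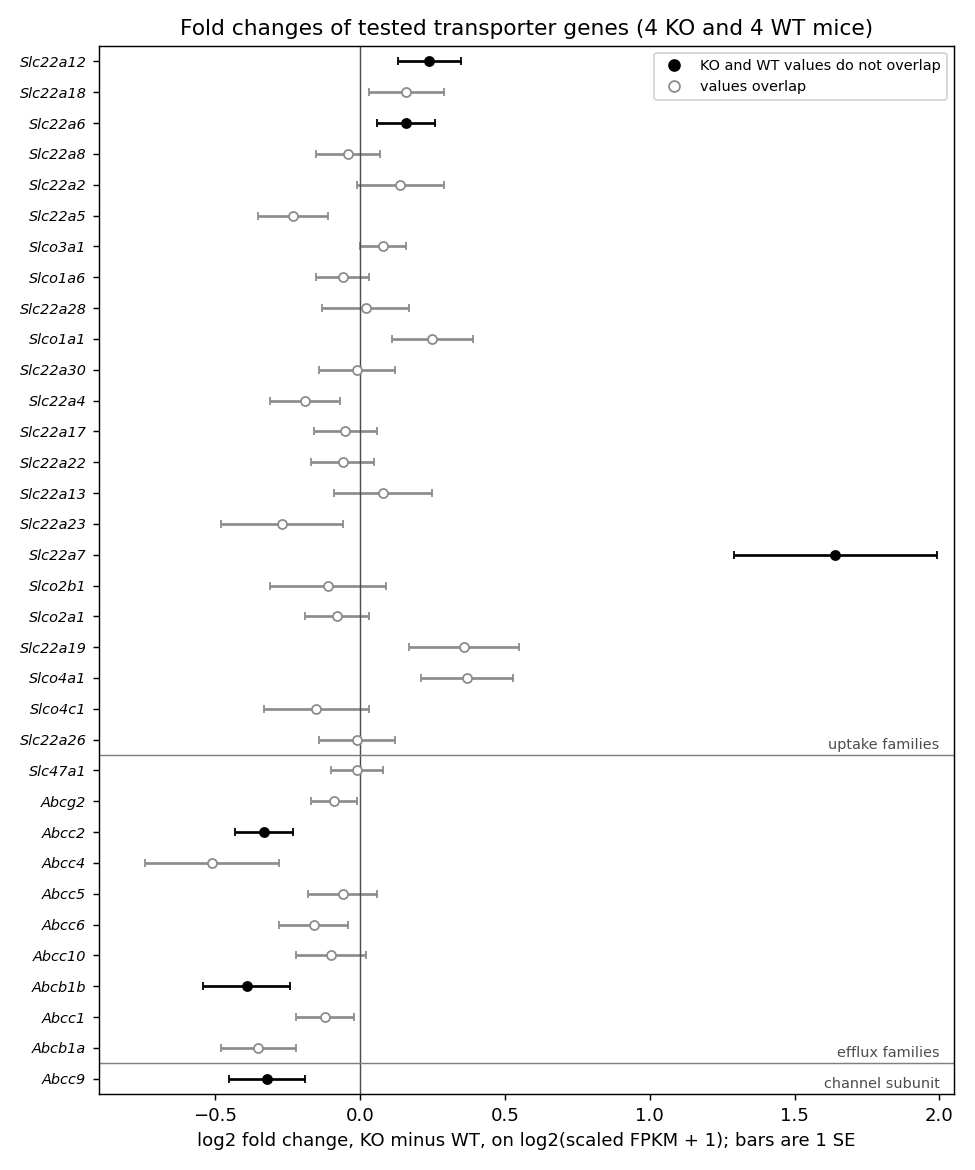
Log2 difference of the tested members (KO minus WT, on the log2(scaled FPKM + 1) scale) over all 8 mice, with bars of 1 SE, filled where the KO and WT values do not overlap and open where they do. Slc22a7 stands alone at 1.64 on the right, and all 10 efflux members lie left of 0.

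**Figure D3:**
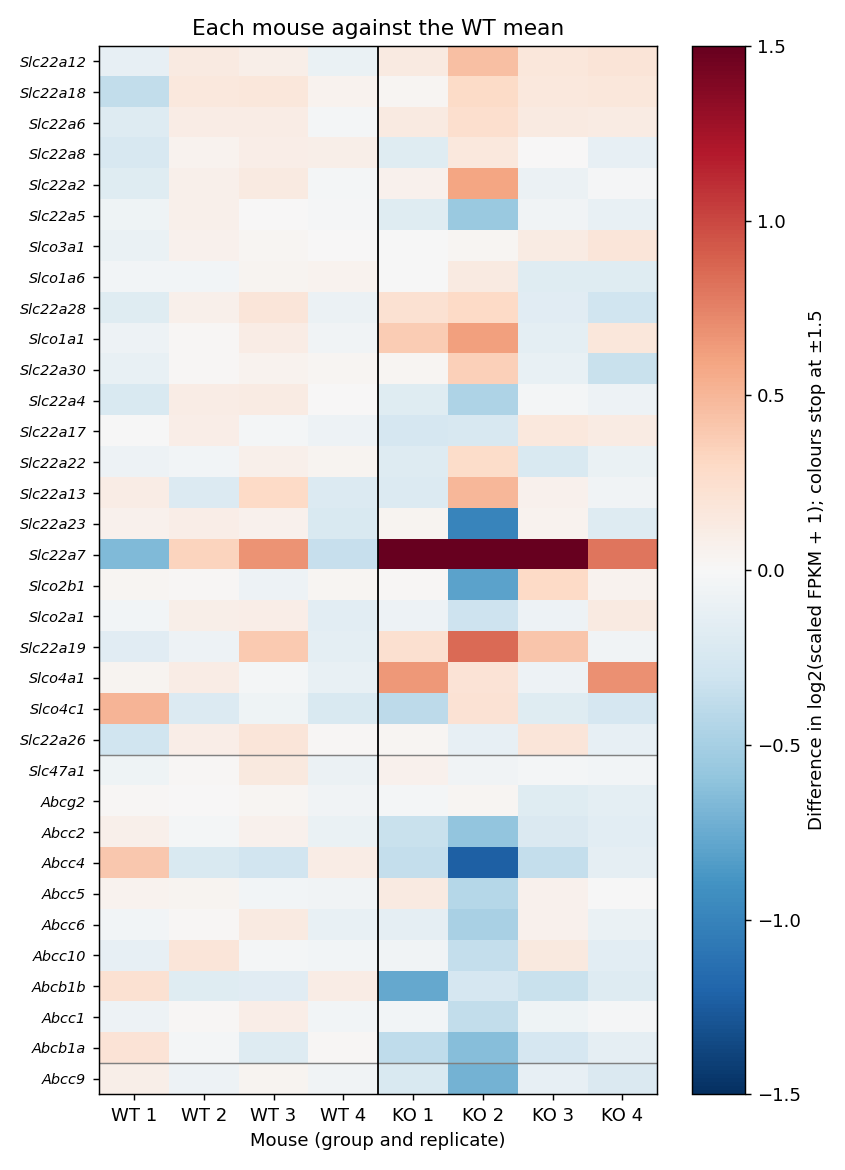
Heat map of the difference of each mouse (columns, 4 WT left of the line and 4 KO right of it) from the WT mean for the tested members (rows, in the order of the plot of levels), on the log2(scaled FPKM + 1) scale, red above and blue below the WT mean, with the colours ending at the limits of the scale. Apart from Slc22a7, most of the deep colours are in KO replicate 2, blue for most efflux members and red for many uptake members, and Slc22a7 is red in all 4 KO mice.

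Abcc2 (MRP2, ENSMUSG00000025194, chromosome 19 from 43782192 to 43840740) exports glucuronide and glutathione conjugates across the brush border. It lay at 57.6, 53.7, 57.1 and 51.0 scaled FPKM in WT mice and at 43.1, 36.0, 47.0 and 48.8 in KO mice. Every KO mouse was below every WT mouse. The means were 54.8 ± 3.10 and 43.8 ± 5.67 (SD, n = 4 each), the log2 difference was -0.33 ± 0.10 SE, and the unadjusted p of 0.011 became 0.67 after adjustment over all genes (limma). Without KO replicate 2 the groups stayed separate, at -0.24 ± 0.07 SE (unadjusted p = 0.0054, limma adjusted p = 0.26).

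Abcc4 (MRP4), which exports cyclic nucleotides, urate and prostaglandins into the urine, lay at 24.5, 15.4, 14.8 and 19.9 scaled FPKM in WT mice and at 14.0, 7.28, 14.1 and 16.6 in KO mice. The groups overlapped in 1 KO mouse, replicate 4. Its difference of -0.51 ± 0.23 SE was the largest on the efflux side (unadjusted p = 0.053, limma adjusted p = 0.82), and it was -0.28 ± 0.16 SE without KO replicate 2. The other MRP pumps differed less. Abcc1 (MRP1) lay at 3.45 to 4.01 in WT and 2.63 to 3.63 in KO mice (-0.12 ± 0.10 SE), Abcc5 (MRP5, a cyclic nucleotide pump) at 7.23 to 7.91 and 5.38 to 8.38 (-0.06 ± 0.12 SE). Abcc6, the gene mutated in pseudoxanthoma elasticum, lay at 5.88 to 7.14 and 4.28 to 6.78 (-0.16 ± 0.12 SE), and Abcc10 at 5.22 to 6.68 and 4.27 to 6.48 (-0.10 ± 0.12 SE). KO replicate 2 held the lowest of the 8 values in each of these 4 genes, and without it Abcc1 was at -0.04, Abcc5 at 0.06, Abcc6 at -0.06 and Abcc10 at -0.02.

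P-glycoprotein exports hydrophobic and cationic drugs and is encoded by 2 neighbouring genes in mice. Abcb1b lay at 6.33, 4.50, 4.56 and 5.75 scaled FPKM in WT mice and at 2.67, 4.23, 3.96 and 4.45 in KO mice. The groups were separate, although KO replicates 2 and 4 came close to WT replicates 2 and 3. Abcb1a lay at 3.20, 2.57, 2.20 and 2.69 in WT and at 1.81, 1.35, 2.07 and 2.31 in KO mice, with only KO replicate 4 reaching into the WT range. The differences were -0.39 ± 0.15 SE for Abcb1b (unadjusted p = 0.025, limma adjusted p = 0.77) and -0.35 ± 0.13 SE for Abcb1a (unadjusted p = 0.021, limma adjusted p = 0.73). Without KO replicate 2 they were -0.43 and -0.26. The 2 genes share sequence, with 16.3% of the 50-base stretches of Abcb1a also in Abcb1b, so their values are not independent.

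Slc47a1 and Abcg2 were the most abundant efflux members. Slc47a1, the proton exchanger that passes on what OCT2 takes up, lay at 264, 280, 307 and 260 scaled FPKM in WT mice and at 290, 268, 272 and 269 in KO mice (-0.01 ± 0.09 SE). Abcg2, which exports urate and sulfate conjugates, lay at 139, 138, 141 and 133 in WT and at 135, 140, 121 and 124 in KO mice (-0.09 ± 0.08 SE). With these standard errors, differences of that size could not be told from none. Summed over the 13 efflux members, scaled FPKM was 521 ± 22.9 in WT and 490 ± 15.8 in KO mice, a sum that Slc47a1 and Abcg2 dominate. The sum over the 40 uptake members was 2485 ± 215 in WT and 2695 ± 181 in KO mice, with overlapping groups on both sides.

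**Figure D4:**
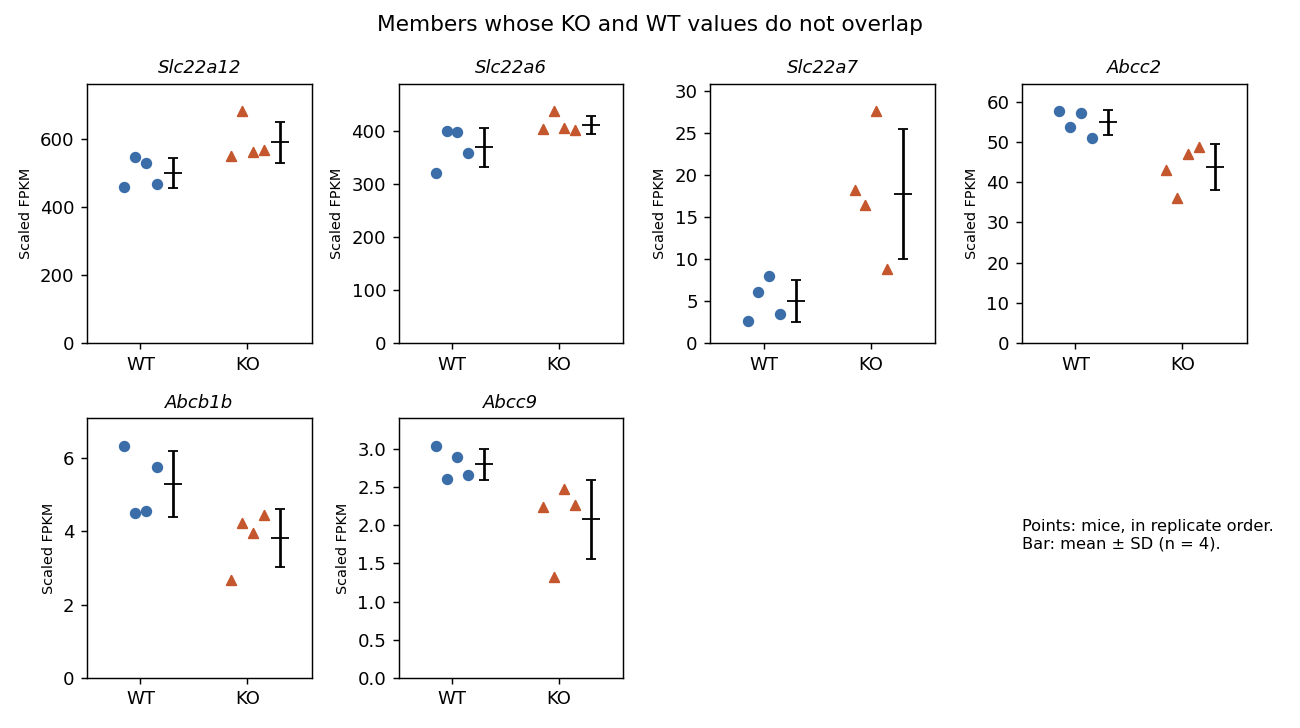
Scaled FPKM in each mouse (circles WT, triangles KO, in replicate order) for Slc22a12, Slc22a6, Slc22a7, Abcc2, Abcb1b and Abcc9, whose groups did not overlap, each on its own axis from 0, with the mean and SD of the 4 mice beside the points. Slc22a7 shows the gap between means of 5.01 and 17.8, whereas in Slc22a12 and Slc22a6 the nearest WT and KO mice almost meet.

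Abcc9 (SUR2), the channel subunit of vascular smooth muscle and pericytes, lay at 3.04, 2.61, 2.90 and 2.66 scaled FPKM in WT mice and at 2.24, 1.32, 2.48 and 2.27 in KO mice. The groups did not overlap (-0.32 ± 0.13 SE, unadjusted p = 0.034, limma adjusted p = 0.79), and without KO replicate 2 they also did not (-0.19 ± 0.08 SE). The markers of fibroblasts and pericytes, read as 1 list, summed to 29.0 to 35.6 in WT and 20.8 to 35.3 in KO mice. The sum was lowest in the same KO replicate 2 (2 of 5 above 0 and 3 below). The median difference of the list was -0.05, and 0.15 without that mouse. Pdgfrb, the marker of lowest p in that list, lay at 10.7 ± 1.33 in WT and 8.14 ± 1.90 in KO mice. Its groups overlapped (-0.38 ± 0.16 SE, limma adjusted p = 0.80). The markers of endothelium summed to 197 to 239 and 157 to 245, again lowest in KO replicate 2. The part of these markers in the values of Abcc9 was not tested. In whole kidneys, fewer cells of a type and less RNA per cell cannot be told apart. Abcc8 (SUR1) was under the filter with 32 reads in WT and 78 in KO mice.

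Among the 20 members that were not tested, 15 had reads and 10, counting those at 0, had fewer than 10 reads over the 8 libraries. The highest was Slc22a21, with a mean of 0.891 FPKM, close below the lowest tested member, Slc22a26, with 1.31. Slc22a29, another chromosome 19 member, lay at 0.788, 0.778, 1.56 and 1.74 scaled FPKM in WT mice and at 0.387, 0.451 and 0.521 in KO replicates 1, 3 and 4 (218 reads in WT and 91 in all KO mice). KO replicate 2 lay just inside the WT range, and with no filter on low values the difference was -0.50 ± 0.17 SE (unadjusted p = 0.015, limma adjusted p = 0.77). Abcc3 (MRP3) lay at 0.740 ± 0.144 in WT and 0.903 ± 0.142 in KO mice, and Slc22a15 at 0.392 ± 0.144 and 0.490 ± 0.0577. The MATE2 gene Slc47a2 had 21 and 16 reads, Slco1a4 69 and 49, Slc22a14 29 and 35, and Slc22a27 15 and 8. Abcc12, Slco1a5, Slco1c1 and Slco5a1 were among the members with fewer than 10. Slco1b2, the main SLCO gene of liver, had 1 read in all 8 libraries, and Slc22a16, Slc22a20, Slco6b1, Slco6c1 and Slco6d1 were listed at 0 throughout. At this depth their transcripts were not detectable, which does not show them to be absent.

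Genes that work with the families were read from lists chosen with earlier results of these data known. Of 22 carriers of drugs, urate, nucleosides, peptides, folate or bile acids outside the families 15 were tested, 6 above 0 and 9 below, with a median of -0.04 and none past the threshold. Slc16a9, a carnitine efflux carrier, lay at 40.4 ± 1.91 scaled FPKM in WT and 31.4 ± 7.46 in KO mice (-0.38 ± 0.15 SE, limma adjusted p = 0.79, and -0.23 without KO replicate 2). Every KO value was below every WT value, but WT replicate 2 and KO replicate 3 were both at 37.6 after rounding. Slc29a2, a nucleoside carrier, lay at 2.29 ± 0.0672 and 2.60 ± 0.248. The genes that make the sodium, proton and dicarboxylate gradients had 2 of 8 above 0 and 6 below, with a median of -0.06. Slc13a2, which brings in citrate and other dicarboxylates, was at -0.22 ± 0.16 SE, and Fxyd2, a subunit of the sodium pump, at 0.20 ± 0.16 SE (0.05 without KO replicate 2). Of the 5 brush border scaffold genes, Pdzk1, which anchors URAT1 and other carriers, lay at 217 ± 20.9 in WT and 192 ± 12.4 in KO mice (-0.17 ± 0.10 SE). Slc9a3r1 lay at 280 ± 26.7 and 305 ± 40.6 (0.12 ± 0.12 SE, and 0.04 without KO replicate 2).

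Of the transcription factors known to act on these families, 14 of 15 were tested and none passed the threshold, with 2 above 0, 12 below and a median of -0.10 (-0.05 without KO replicate 2). Nr1i2 encodes the pregnane X receptor, the drug sensor that induces Abcb1a, Abcb1b and Abcc2 in liver and intestine. It lay at 3.69, 2.26, 3.32 and 2.98 scaled FPKM in WT mice and at 1.96, 1.71, 2.32 and 1.78 in KO mice. The groups overlapped only through WT replicate 2 and KO replicate 3 (-0.46 ± 0.13 SE, unadjusted p = 0.0044, limma adjusted p = 0.51). The part of Nr1i2 in the values of Abcb1a, Abcb1b and Abcc2 was not tested. Cebpb, an acute-phase factor, lay at 11.1 ± 1.49 in WT and 28.4 ± 21.6 in KO mice with 60.3 in KO replicate 2 (1.05 ± 0.36 SE, limma adjusted p = 0.71, and 0.61 without that mouse). Hnf4a lay at 312 ± 11.8 and 293 ± 50.9.

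Markers of the cells that carry these transporters, and of cells that do not, moved with the groups in part. The 8 markers of the S1 and S2 segments of the proximal tubule summed to 5914 to 7761 scaled FPKM in WT and 6833 to 7074 in KO mice, with 7 of 8 below 0 and a median of -0.21 (-0.09 without KO replicate 2). The 5 markers of the S3 segment summed to 617 to 725 and 619 to 739. The sums of the urothelial markers did not overlap, at 4.00 to 10.1 in WT and 14.7 to 33.4 in KO mice. All 6 tested genes were above 0, and in 4 of them the groups did not overlap. Immediate early and heat shock genes, listed as signs of tissue handling, summed to 56.2 to 71.3 in WT and 102 to 285 in KO mice. All 7 tested genes were above 0, with a median of 0.76 (0.23 without KO replicate 2, which had the highest sum). The KO mice differed in which genes were high. Junb lay at 20.3 to 23.1 in WT and at 16.8, 122, 30.4 and 33.2 in KO mice. Hspa1b lay at 7.33 to 12.6 in WT and at 55.7, 11.7, 27.8 and 25.4 in KO mice. Collecting duct principal cell markers summed to 328 to 456 and 411 to 616, and macrophage markers to 83.1 to 98.3 and 81.3 to 160. Markers of the loop and distal tubule summed to 1621 to 1909 and 1256 to 1662, with 3 of 5 below 0 and the same median of -0.21 (-0.07 without KO replicate 2). Endothelial markers had 5 of 6 below 0 and a median of -0.11 (0.0049 without that mouse). Those of intercalated cells summed to 59.9 to 64.3 and 61.6 to 65.2, and those of podocytes to 110 to 117 and 91 to 124. Hepatocyte markers, listed because liver shares many of these carriers, summed to 133 to 212 and 133 to 323. Nearly all of that sum was Ttr, and Alb lay at 5.79 ± 0.660 in WT and 4.99 ± 0.799 in KO mice. The markers of adipocytes and adrenal cortex summed to at most 3.31 in any mouse, with Cyp11b2 at 0. The part of these shifts in the values of the members was not tested.

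The KO mice can also carry sequence of the 129S5 cells beside C1qtnf1, which lies on chromosome 11 from 118428203 to 118449963. The members on that chromosome are Abcc3 at 24 Mb from it, Slc47a1 and Slc47a2 at about 57 Mb and Slc22a4, Slc22a5 and Slc22a21 at about 64.4 Mb. The other members are on other chromosomes. The part of 129S5 sequence in the values of the members was not tested.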

How the data were processed

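Poly-T selected RNA of 8 kidneys had been sequenced, and the authors deposited 1 table of 35275 genes with a column per mouse. Its header gives no unit. The deposited values were treated as FPKM because the smallest values came in whole steps, with smaller steps for longer genes. The build was mm10 and the tools were STAR 2.5, CASAVA, DESeq2 and HTSeq 0.6.1, per the submitters' processing notes. What each tool did, which annotation was used and whether strand was counted is not given in the sources used here.

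Library totals and reads were worked out from the FPKM steps: all 22945 genes above 0 gave whole reads within 0.002 reads, 5865 of them with their GENCODE M21 length and 17080 with a fitted length. With shifted totals 0 of 500 control genes did. No columns were identical. Depth was 17884140 to 20344859 reads.

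Scaling factors (trimmed means of M values on those reads, trims 0.3 and 0.05) were 0.924 to 1.05. limma 3.58.1 in R 4.3.3 (statmod 1.5.0; trend, robust) was run on log2(FPKM divided by that factor, plus 1) for the 12118 genes whose FPKM averaged 1 or more, with Benjamini-Hochberg adjustment over all of them and a threshold of 0.05. The log2 scale with a pseudocount understates differences of low genes. The script was tested on simulated data. Mice were grouped by their labelled genotype, and their numbers serve as names only.

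The members and lists were chosen with earlier results of these data known. Named members were those with an unadjusted p under 0.05, those without overlap, the 3 highest and the 2 of lowest p in each role, untested ones reaching 0.5 FPKM, and the 2 of lowest p in each list, and other members were added. Positions come from M21, which matched 55 of 55 members. Of these 1, with 1 listed transcription factor, is not reported here but stays in the counts. Alternatives were scaling, pseudocount, filter, weights, a fit on reads and leaving out each mouse.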

Additional observations from a re-analysis of the deposited data

Results flagged for a closer look

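In 7 of the 70 groups of 4 mice (35 tested members, WT and KO), 1 mouse lay further from the rest than Dixon's critical value allows, where chance gives about 1 in 20. KO replicate 2 held 3 of them. It was the lowest KO mouse for Abcc1 at 2.63 scaled FPKM (the other 3 at 3.47 to 3.63), the highest for Slc22a6 at 438 (403 to 406) and the highest for Slc22a12 at 681 (549 to 568). WT replicate 3 was the highest WT mouse for Slc22a19 at 4.41 (2.65 to 2.90) and the lowest for Slco2b1 at 6.59 (7.16 to 7.23). WT replicate 4 was the lowest for Slc22a23 at 22.4 (27.6 to 28.4), and WT replicate 1 the lowest for Slc22a8 at 213 (261 to 269).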

How the results depend on the processing

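No member passed the threshold in any of the 16 alternative settings, where the smallest adjusted p of a member was 0.16 to 0.69 (limma). In these settings 5 to 10 members did not overlap, while the share over all tested genes moved from 3.92% to 11.4%. The count of 5 was at a mean FPKM of at least 5 (27 members tested, 5.29% of all genes). The count of 10 was without KO replicate 3 (35 members tested, 7.63% of all genes). Slc22a7 stayed above 0 in all 16 settings, at 1.40 to 1.91. The genes called over the whole table, 5 at first, were 3 at a mean FPKM of at least 5, 58 with array weights, and 3 to 20 on leaving out 1 mouse (20 without KO replicate 2 and 20 without KO replicate 3). The median of the efflux members was -0.10 without a filter, -0.10 at a mean FPKM of at least 5, -0.10 with array weights and -0.22 to -0.09 on leaving out 1 mouse, and that of the uptake members -0.02 to 0.07. Of 693 values of 44 genes compared, 29 in 12 genes had the other sign. With array weights these were Abcc5 at 0.06, Slc22a17 at 0.04, Slc22a2 at -0.05, Slc22a26 at 0.01, Slc22a28 at -0.12, Slco2b1 at 0.15 and Slc9a3r1 at -0.002. Slc22a26 was at 0.01 in a fit on reads (limma-voom), and Slc22a28 at -0.01 without scaling. On leaving out 1 mouse the ranges were -0.13 to 0.06 for Abcc5, -0.07 to 0.18 for Slc22a13, -0.13 to 0.01 for Slc22a17, -0.02 to 0.20 for Slc22a2, -0.11 to 0.05 for Slc22a26, -0.08 to 0.11 for Slc22a28, -0.14 to 0.08 for Slc22a30, -0.12 to 0.0049 for Slc22a8, -0.05 to 0.04 for Slc47a1, -0.25 to 0.12 for Slco2b1 and -0.27 to 0.01 for Slco4c1. The cause was not tested. With 4 mice per group, differences within about 2 standard errors of 0 could not be told from none. Member differences beyond that did not pass the threshold either, after adjustment over all tested genes. No paired analysis was possible because the labels give no replicate numbers or litters shared between the groups.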

Other observations

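Nr1i3, the constitutive androstane receptor, which senses drugs beside the pregnane X receptor, was under the filter on low values and was singled out after its values were seen. Its reads were 8, 13, 10 and 5 in WT mice and 1, 2, 2 and 4 in KO mice, or 0.155 ± 0.0650 and 0.0401 ± 0.0197 scaled FPKM (SD, n = 4 each). The groups did not overlap, at counts where 1 read moves the value of a mouse.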
